A study of Cricetulus griseus with 10 samples.

Results

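The genes described here encode chains of the interstitial collagens (Col1a1, Col1a2, Col3a1, Col5a1, Col5a2, Col6a1, Col6a2 and Col6a3), the matricellular protein periostin (Postn) and the proteoglycan lumican (Lum). They were named as a set with earlier results of these data known. Of these 10 genes, 8 were found among the 25156 features of the deposited table, 5 by symbol and 3 (Col1a1, Col1a2 and Col3a1) by gene number, and Col5a1 and Col6a3 were not analysed here. The libraries were made from wild-type CHO-K1 cells, a subclone of the Chinese hamster ovary line that is widely used to make recombinant proteins, while they were being adapted to suspension growth in SFM4CHO, a serum-free medium. There were 5 groups, passages 0, 2, 4, 6 and 10 of the adaptation (P0, P2, P4, P6 and P10), each with 2 libraries from ribosomal RNA-depleted total RNA. How the P0 cells were grown is not stated. The labels do not tie the duplicates to separate cultures, so the p-values measure the spread between these libraries, which may be technical.

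Fibrillar collagens are secreted as procollagen trimers, trimmed outside the cell and packed into fibrils that give connective tissue its strength. Type V collagen nucleates these fibrils, type VI forms beaded microfilaments close to cell surfaces, lumican binds fibrils and sets their spacing, and periostin binds collagen and fibronectin and promotes cross-linking. These proteins are typical products of mesenchymal cells that are attached to a matrix.

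Values are normalised reads, that is, read counts divided by a size factor per library. Library totals ran from 8394219 to 16599495 reads. Across tested features the duplicates correlated at 0.988 to 0.992 at P0, P2 and P4, but at 0.956 at P6 and 0.930 at P10, so the late passages carry the larger spread. In the fit of all 10 libraries, 1 spread per gene is pooled over the 5 passages. A gene therefore has the same SE in each comparison, and its SE does not show this difference between passages. Of 13 fibroblast and mesenchymal markers, all 13 were matched, 2 (Thy1 and Tcf21) had no read, and the sum, mostly vimentin, was 15647 to 17640 at P0, 19684 to 20942 at P2, 20558 to 21874 at P4, 20656 to 21837 at P6 and 22601 to 26462 at P10. Of 9 epithelial markers 7 were matched, with sums of 79.8 to 403. Most of that sum was Cdh1, at 50.6 to 337, with Ocln at 8.61 to 41.4, Epcam at 2.87 to 16.4, and Krt18 and Krt19 at or below 1.69.

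Of these genes, 6 rose early in the adaptation and fell again later. At P2 against P0, Lum, Col6a2, Col6a1, Col1a1, Postn and Col3a1 rose, by 5.87 to 1.90 on the log2 scale, and Col5a2 did not pass. By P10 those 6 genes had fallen again from P2, and of the 7 genes tested Col6a1 and Col6a2 were still called above P0. These late calls depend on the fit. With only the 2 passages compared in the fit, none of the 6 falls passed (limma adjusted p = 0.211 to 0.540), nor did Col6a1 (0.1001) or Col6a2 (0.0922) at P10 against P0. Leaving out 1 library left 1 to 6 of the 6 falls. Of the 7 genes tested, 6 were called higher at P2, where 2.08% of all features tested were, 5 at P4 (3.72%), 4 at P6 (10.5%) and 2 at P10 (8.77%), and 6 were called lower at P10 than at P2 (0.636%). Without Col1a1, which passed the filter on low values only through P2 and P4, the counts were 5, 4, 4 and 2 of 6 higher and 5 of 6 lower. None was called lower than P0 at any passage, where 2.07% (P2), 5.52% (P4), 10.5% (P6) and 8.25% (P10) of features were, and none was called higher at P10 than at P2 (0.621%). The 4 comparisons with P0 share the P0 libraries, and P10 against P2 shares the P2 libraries with the first of them. Calls are limma adjusted p under 0.05 over 13521 features averaging 10 or more normalised reads, a level that Col1a2 did not reach. In bulk RNA, fewer cells of a type and less RNA per cell cannot be told apart.

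**Figure D1:**
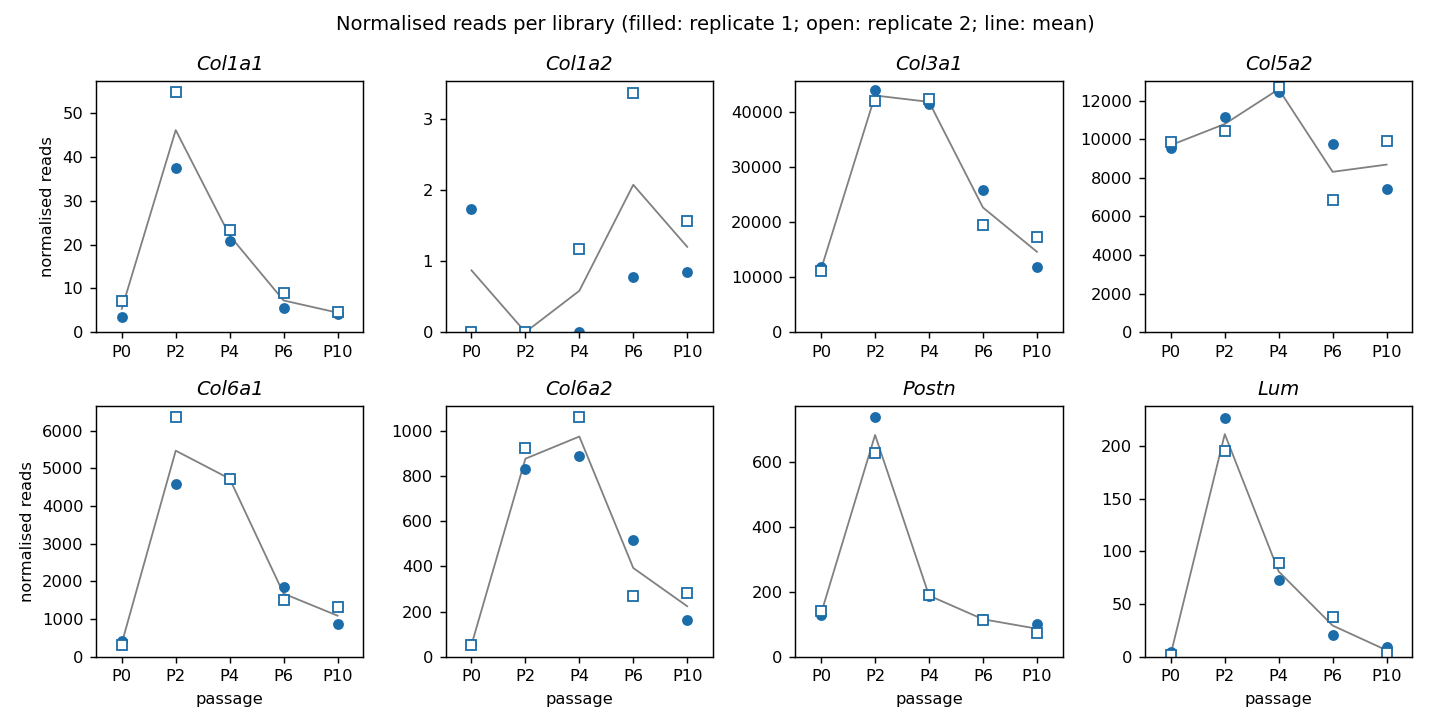
Normalised reads (vertical axis, linear, a scale of its own for each gene) in each library by passage (horizontal axis), with filled circles for replicate 1, open squares for replicate 2 and a line through the means. Col3a1, Col6a1 and Col6a2 are high at P2 and P4, Postn and Lum are high at P2 above the rest, and Col5a2 stays between 6854 and 12724.

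Col3a1 encodes the chain of type III collagen, a homotrimer of pliable tissues, and took 0.0911 to 0.106% of reads at P0 and 0.338 to 0.378% at P2. It had 11822 and 11120 normalised reads in P0, 43931 and 41963 in P2, 41328 and 42248 in P4, 25834 and 19401 in P6, and 11851 and 17335 in P10. The P2 and P4 libraries were the highest and overlapped each other, P6 lay between, and the lower P10 library was just above the higher P0 library. The rise was 3.74-fold at P2 (log2 difference 1.90, SE 0.29, limma adjusted p = 0.00944), 3.64-fold at P4 (1.87, adjusted p = 0.00659) and 1.97-fold at P6 (0.97, adjusted p = 0.0438). At P10 the difference from P0 was 0.32 (95% interval -0.33 to 0.97, limma adjusted p = 0.482). From P2 to P10 the level fell by 1.58 on the log2 scale (SE 0.29, limma adjusted p = 0.0416). The P2 call was lost without either P0 or either P2 library (highest adjusted p = 0.115) and the P4 call without either P0 or either P4 library (0.0827). The P6 call was lost when any 1 of the P0, P2 and P4 libraries was left out and without P6 replicate 1 (0.201), and the fall from P2 to P10 when any 1 of the P0, P2 and P4 libraries was left out and without P10 replicate 1 (0.368).

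Type I collagen, the main fibrillar collagen of skin, bone and tendon, had few reads. Col1a2, its alpha 2 chain, had 10 reads in all 10 libraries together, with 0 to 3 in each, at or under the floor of 3 reads, so no fold change is given. Col1a1, its alpha 1 chain, had 4 and 5 reads in P0, 36 and 49 in P2, 21 and 20 in P4, 7 and 8 in P6, and 5 and 6 in P10. The P2 libraries were the highest and the P4 libraries came next, with no overlap between these and the other passages. In pooled reads P2 stood 9.39-fold above P0 (95% exact binomial interval 4.72 to 21.2, counting error only). Because only its P2 and P4 values carried Col1a1 past the filter on low values, its p-values are given from the fit with no filter. There the log2 difference from P0 was 2.93 at P2 (limma adjusted p = 0.0214) and 1.93 at P4 (0.0626), against 0.41 at P6 and -0.15 at P10, and Col1a1 fell by 3.09 from P2 to P10 (0.0387). With the filter the P4 difference passed too (limma adjusted p = 0.0340). In that fit the P2 call was lost without P0 replicate 1 and without either P2 library (highest adjusted p = 0.146), the P4 call when any 1 of the P0, P2 and P4 libraries was left out (0.236), and the fall when any 1 of the P2 and P4 libraries was left out (0.308).

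Col5a2, a chain of the fibril-nucleating type V collagen, did not pass in any comparison of the fit of all 10 libraries. It had 9537 and 9849 normalised reads in P0, 11158 and 10423 in P2, 12463 and 12724 in P4, 9767 and 6854 in P6, and 7443 and 9928 in P10. The P4 libraries were the highest and the 2 lowest were P6 replicate 2 and P10 replicate 1, with wide overlap between P0, P6 and P10. Its log2 differences from P0 were 0.15 at P2 (95% interval -0.40 to 0.71, limma adjusted p = 0.826), 0.38 at P4, -0.24 at P6 and -0.17 at P10, none of which passed. The P4 difference passed as higher in the fit of only P0 and P4 (limma adjusted p = 0.0198) and without both P6 replicate 2 and P10 replicate 1 (0.0121). Within a library, Col3a1 had 1.13 to 1.24 reads for each Col5a2 read at P0, 3.94 to 4.03 at P2, 3.32 in both P4 libraries, 2.64 to 2.83 at P6 and 1.59 to 1.75 at P10. These ratios, which no scaling of the libraries can move and which are not corrected for gene length, did not overlap between passages and were above P0 at P10 as well; they were not tested.

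Both type VI chains found, Col6a1 and Col6a2, rose at P2 and were called above P0 at every later passage. Col6a1 had 420 and 305 normalised reads in P0, 4575 and 6358 in P2, 4717 and 4728 in P4, 1845 and 1507 in P6, and 873 and 1308 in P10. Its levels were ordered P0, P10, P6 and then P2 and P4, and of these neighbours P2 and P4 overlapped. It was 15.1-fold above P0 at P2 (log2 difference 3.91, SE 0.26, limma adjusted p = 0.000228), 13.0-fold at P4 (3.72, adjusted p = 0.000191), 4.63-fold at P6 (2.22, adjusted p = 0.00162) and 3.01-fold at P10 (1.58, adjusted p = 0.00652). It fell by 2.33 from P2 to P10 (SE 0.26, limma adjusted p = 0.00641). The P2, P4 and P6 calls held whichever library was left out, the P10 call was lost when P0 replicate 2 was left out (adjusted p = 0.0597), and the fall was lost without P2 replicate 2 (0.100).

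Col6a2 had 54.9 and 50.3 normalised reads in P0, 830 and 921 in P2, 888 and 1059 in P4, 514 and 271 in P6, and 163 and 284 in P10. All P2 and P4 libraries lay above all others, the P6 and P10 libraries overlapped, and every later library lay above P0. The log2 differences from P0 were 4.03 at P2 (SE 0.34, limma adjusted p = 0.000674), 4.18 at P4 (adjusted p = 0.000343), 2.80 at P6 (adjusted p = 0.00180) and 2.01 at P10 (adjusted p = 0.00672), or 16.6-fold, 18.5-fold, 7.46-fold and 4.25-fold in means. It fell by 2.02 from P2 to P10 (SE 0.34, limma adjusted p = 0.0319). The P10 call was lost without either P0 library (highest adjusted p = 0.0612), and the fall when any 1 of the P0, P2 and P4 libraries was left out and without P10 replicate 1 (0.345). Col6a1 and Col6a2 are neighbours on 1 chromosome of the CriGri-PICRH-1.0 assembly, with 0 listed genes between them. Col6a1 had 6.06 to 7.65 reads for each Col6a2 read at P0, 5.51 to 6.90 at P2, 4.46 to 5.31 at P4, 3.59 to 5.56 at P6 and 4.60 to 5.36 at P10, a narrower range than that of either gene.

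**Figure D2:**
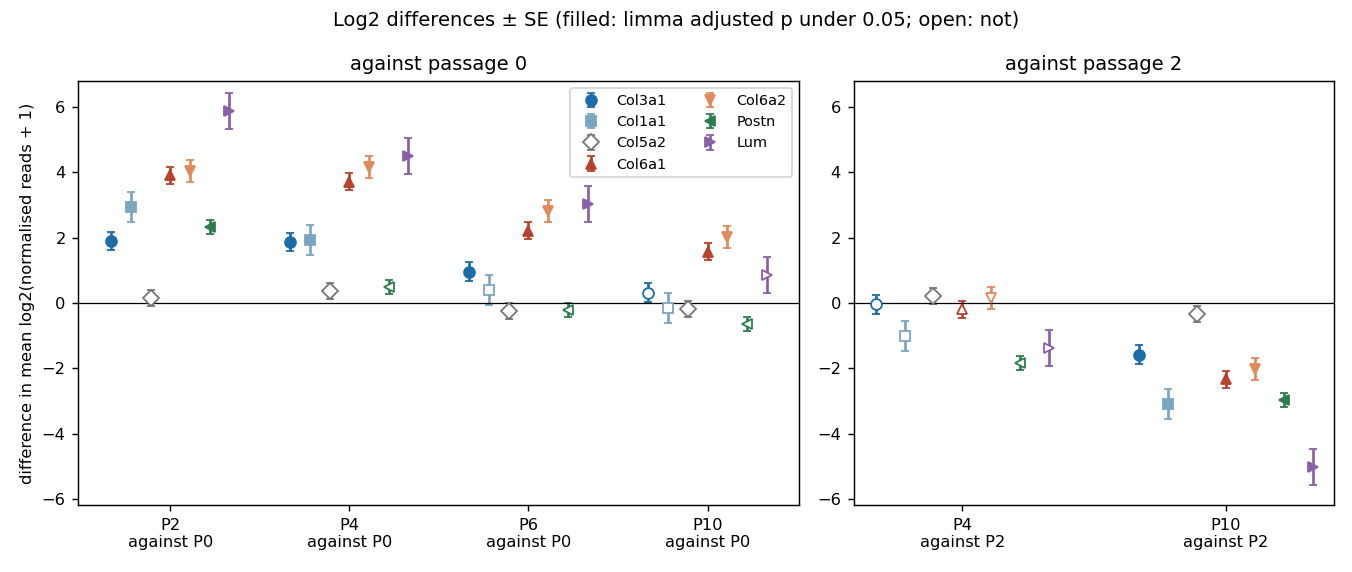
Differences in mean log2(normalised reads + 1) between passages (vertical axis) for the 7 genes tested, against P0 in the left panel and against P2 in the right, with bars of 1 SE and filled symbols where the limma adjusted p was under 0.05. The symbols of Col6a1 and Col6a2 stay filled in each comparison with P0, and those of Col5a2 lie near 0.

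Postn, the fasciclin-domain protein periostin, was high at P2 alone. It had 129 and 139 normalised reads in P0, 739 and 626 in P2, 187 and 190 in P4, 117 and 115 in P6, and 100 and 72.6 in P10. The P2 libraries stood alone, P4 lay a little above P0, and P6 and P10 lay below P0 with no overlap. The rise at P2 was 5.09-fold (log2 difference 2.33, SE 0.22, limma adjusted p = 0.00101) and held whichever library was left out. In the fit of only P0 and P4, Postn passed as higher at P4. With all 10 libraries in the fit, the difference from P0 at P4 was 0.49 (95% interval -0.00 to 0.98, limma adjusted p = 0.209). At P10 it was -0.64 (-1.14 to -0.15, limma adjusted p = 0.0728), and it passed when P10 replicate 1 was left out (-0.88, adjusted p = 0.0200). The fall from P2 to P10, by 2.98 on the log2 scale (SE 0.22, limma adjusted p = 0.000989), also held whichever library was left out.

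Lum, a keratan sulphate proteoglycan of the small leucine-rich family, had the largest fold change of the 7 genes at P2. It had 5 and 1 reads in P0, 218 and 175 in P2, 74 and 76 in P4, 27 and 34 in P6, and 11 and 4 in P10. On the normalised scale this was 4.36 and 1.44 in P0, 227 and 196 in P2, 73.2 and 88.6 in P4, 21.1 and 38.2 in P6, and 9.28 and 3.12 in P10. The passages fell in the order P2, P4, P6 and P10 without overlap, and P10 overlapped P0. In pooled reads, P2 stood 65.1-fold above P0 (95% exact binomial interval 29.6 to 178, counting error only) and P10 stood 1.87-fold above it (0.685 to 5.88). The log2 differences from P0 were 5.87 at P2 (SE 0.55, limma adjusted p = 0.00103), 4.50 at P4 (adjusted p = 0.00258), 3.03 at P6 (adjusted p = 0.00805) and 0.85 at P10 (95% interval -0.39 to 2.09, adjusted p = 0.323). Lum fell by 5.02 from P2 to P10 (SE 0.55, limma adjusted p = 0.00598). The P6 call was lost when P0 replicate 2 was left out (adjusted p = 0.0623) and the fall without either P2 library (highest adjusted p = 0.0929).

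The share of the P2 level that was left at P4 and P6 ran over a wide range. At P4 the mean stood at 27.6% of the P2 mean for Postn, 38.3% for Lum and 47.8% for Col1a1, but at 86.4% for Col6a1, 97.3% for Col3a1 and 111% for Col6a2. At P6 the shares were 16.9% for Postn, 14.0% for Lum, 15.7% for Col1a1, 30.7% for Col6a1, 44.8% for Col6a2 and 52.7% for Col3a1. Whether the genes differ in this was not tested.

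**Figure D3:**
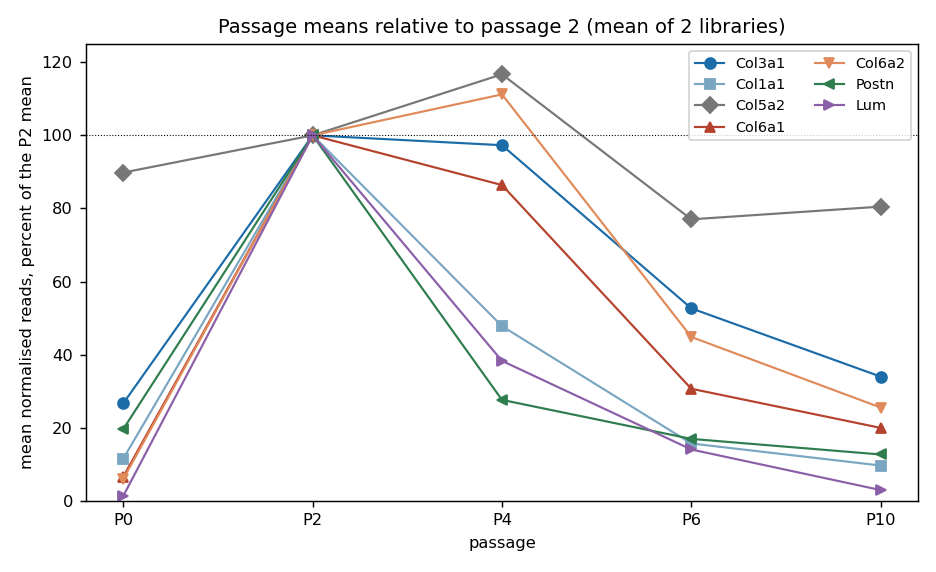
Mean normalised reads of the 2 libraries per passage (vertical axis, percent of the P2 mean) by passage (horizontal axis) for the 7 genes tested. At P4 Postn (27.6%), Lum (38.3%) and Col1a1 (47.8%) lie well under Col6a1 (86.4%), Col3a1 (97.3%) and Col6a2 (111%).

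None of the single steps after P2 gave a limma call. From P2 to P4, none of the 7 genes and none of the 13521 features passed (0%), with 285 features and 2 of the genes, Postn and Lum, at an unadjusted p under 0.05, no call by edgeR and 10 by DESeq2. Postn fell in DESeq2 (log2 difference -1.85, adjusted p = 1.29e-09) and had the same difference in limma (-1.85, SE 0.22, adjusted p = 0.102), where it passed without either P10 library (highest adjusted p = 0.0132). Lum had a difference of -1.38. From P4 to P6 the counts by limma were again 0 (0%); all 7 genes had differences between -0.62 and -1.52 and an unadjusted p under 0.05, as did 25.5% of the features tested. There edgeR made no call and DESeq2 made 463, with Col3a1, Col6a1 and Col6a2 among them as lower. Without either P10 library, limma calls appeared across the features as a whole. These genes were among them, so this was not particular to these genes. From P6 to P10 limma made no call (0%), with 1273 features and 3 of the genes at an unadjusted p under 0.05, none by edgeR and 67 by DESeq2. Lum had the largest difference there, -2.18 (limma adjusted p = 0.495), and passed in DESeq2 (adjusted p = 0.0288). Without P10 replicate 1, which leaves P10 as 1 library, the difference of Lum was -2.84.

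The duplicates of P6 and P10 differed in a like way for several of these genes. P6 replicate 2 was lower than P6 replicate 1, and P10 replicate 1 lower than P10 replicate 2, for Col3a1, Col5a2, Col6a1 and Col6a2. For Lum the same 2 libraries were the higher ones. Without both of them the P10 value is that of replicate 2 alone, so the difference from P0 moves to that library's: 0.60 for Col3a1 and -0.88 for Postn on the log2 scale, against 0.32 and -0.64 with both libraries.

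The genes with the most similar profiles over the 10 libraries were taken by Pearson's r of log2 values among 9272 named features with a mean of at least 50. These are descriptions, and all share the same libraries. Col3a1 was most like Col9a3 (r = 0.989), a chain of the cartilage-type, fibril-associated collagen IX, then Dnajb13 (0.983) and Armcx3 (0.979). Col6a1 was most like Mmd (0.990), Col6a2 (0.983) and Tnfaip2 (0.975), and Col6a2 was most like Fabp4 (0.985), a fatty acid carrier, then Col6a1 (0.983) and Pkdcc (0.982). Lum was nearest to C7 (0.981), a terminal complement component, Rgs16 (0.969) and Reep5 (0.969). C7 had 61.0 and 61.8 normalised reads in P0, 482 and 554 in P2, 280 and 280 in P4, 182 and 186 in P6, and 86.1 and 78.8 in P10, the same order of passages as Lum. Postn was nearest to Ttc13 (0.954), Dcbld2 (0.936) and Dstyk (0.911). Col5a2 was nearest to St6galnac6 (0.991), Pdia6 (0.982), a disulphide isomerase of the endoplasmic reticulum, and Maged2 (0.978). Among the genes themselves, r ran from 0.378 (Col5a2 with Lum) to 0.983 (Col6a1 with Col6a2).

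Most of the other collagens tested did not pass at P2. The same held for all features tested, of which 2.08% were called higher and 2.07% lower. Of 29 further fibrillar, fibril-associated and related collagens, 27 were matched and 20 tested; at P2 against P0, 1 rose, 1 fell and 18 did not pass, with a median log2 difference of 0.18 against 0.01 over all features tested. The riser was Col9a3, at 22.6 and 33.1 normalised reads in P0, 1098 and 1061 in P2, 698 and 747 in P4, 147 and 96.6 in P6, and 22.8 and 80.4 in P10. P10 overlapped P0, and no other passages overlapped. It rose by 5.25 at P2 (SE 0.50, limma adjusted p = 0.00108) and fell by 4.62 from P2 to P10 (adjusted p = 0.00598), the fall being lost without either P2 library (highest adjusted p = 0.0929). Col8a1, of the short-chain collagen VIII, fell at P2, from 672 ± 198 to 234 ± 24.2 (SD, n = 2; log2 difference -1.49, limma adjusted p = 0.0240), a call lost when any 1 of the P0, P2 and P4 libraries was left out (0.228). From P2 to P10, 1 of the 20, Col9a3, was lower and 19 did not pass. Of all features tested, 0.621% were called higher and 0.636% lower from P2 to P10, so few calls were made in any list. At P4 and at P6 against P0, 1 of the 20 was higher and 1 lower. The shares of all features tested were 3.72% higher and 5.52% lower at P4, and 10.5% each way at P6. 

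Of 16 other small leucine-rich proteoglycans, 16 were matched and 3 tested. At P2 none passed, with a median difference of 0.57. Decorin (Dcn), a dermatan sulphate relative of lumican, had 5119 and 4943 normalised reads in P0, 7789 and 7157 in P2, and 3426 and 2937 in P10. It fell from P2 to P10 by 1.23 (SE 0.18, limma adjusted p = 0.0193), a call lost when any 1 of the P0, P2 and P4 libraries was left out (highest adjusted p = 0.232). The fibril proteoglycans Bgn, Fmod, Kera and Prelp had at most 2.25 normalised reads in any library. In the fasciclin-domain family of Postn, Tgfbi had at most 6.74, and Stab2, a scavenger receptor, was the 1 gene tested of 3; it rose by 6.21 at P2 (SE 1.38, limma adjusted p = 0.0438), a call lost when any 1 of the P0, P2 and P4 libraries was left out (0.255).

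Few genes that fold, modify or process collagen passed at P2, as few of all features tested did (2.08% higher and 2.07% lower). Of 27 tested genes of folding and modification in the endoplasmic reticulum, 1 rose at P2, none fell and 26 did not pass (median 0.11). The riser was Fkbp14, a prolyl isomerase that acts on procollagen, from 1188 ± 80.0 to 2174 ± 158 (SD, n = 2; log2 difference 0.87, limma adjusted p = 0.0235, lost when any 1 of the P0, P2 and P4 libraries was left out, highest 0.246). Serpinh1, the collagen chaperone HSP47, had 5780 and 5790 normalised reads in P0, 10406 and 11424 in P2, 14887 and 15343 in P4, 11408 and 6552 in P6, and 7245 and 14216 in P10 (log2 difference 0.91 at P2, limma adjusted p = 0.204, and 1.39 at P4, adjusted p = 0.0444). It was named after its values were seen, and its P4 call was not refitted without single libraries. Of 13 tested genes of procollagen processing and cross-linking, 1 rose at P2, none fell and 12 did not pass (median 0.02); the riser was the transglutaminase Tgm2 (1.39, limma adjusted p = 0.0404, lost when any 1 of the P0, P2 and P4 libraries was left out, highest 0.265). From P2 to P10 none of the 27 and none of the 13 passed, where 0.621% of all features tested were called higher and 0.636% lower. At P4 against P0, 4 of the 27 were higher and 1 lower, and 3 of the 13 were higher. At P6, 7 of the 27 were higher and 4 lower, and 2 of the 13 were higher. Over all features tested, 3.72% were higher and 5.52% lower at P4, and 10.5% higher and 10.5% lower at P6.

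A pair of collagen receptors fell at P2. Of 10 tested, 2 fell at P2, none rose and 8 did not pass (median -0.22). Of all features tested, 2.08% were called higher and 2.07% lower at P2. Ddr2, a receptor tyrosine kinase that binds fibrillar collagen, had 4190 and 3982 normalised reads at P0 and 1538 to 1908 in the later libraries. It fell by 1.28 at P2 (SE 0.15, limma adjusted p = 0.00343), and by 1.31 at P10 (adjusted p = 0.00160). Itgb1, the beta 1 integrin chain, fell by 0.86 at P2 (limma adjusted p = 0.0416). The P2 call of Ddr2 was lost without P0 replicate 1 or either P2 library (highest adjusted p = 0.0657) and that of Itgb1 when any 1 of the P0, P2 and P4 libraries was left out (0.345), and the P10 call of Ddr2 held whichever library was left out. From P2 to P10 none of the 10 passed, where 0.621% of all features tested were called higher and 0.636% lower. Of 23 tested genes of the TGF-beta pathway and its targets, 1 rose at P2 (Bambi, a decoy receptor, 1.67), 2 fell (Ltbp1, -1.01, and Ski, -0.79) and 20 did not pass (median -0.23). All 3 of these P2 calls were lost when any 1 of the P0, P2 and P4 libraries was left out (highest limma adjusted p = 0.287). From P2 to P10 none of the 23 passed. At P4 against P0, 2 of the 23 were higher and 1 lower, and 2 of the 10 receptors were lower. At P6, 4 of the 23 were higher and 5 lower, and 3 of the 10 receptors were lower. Of 9 collagen-degrading proteases tested, none passed at P4, and 2 were higher and 2 lower at P6. Over all features tested, 3.72% were higher and 5.52% lower at P4, and 10.5% each way at P6. Of 9 tested collagen-degrading proteases none passed at P2, and from P2 to P10 only Mmp2, gelatinase A, was called, as higher (4.84 ± 0.52 to 68.7 ± 23.2 normalised reads, SD, n = 2, limma adjusted p = 0.00598, lost without either P2 library, highest 0.0989).

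At P10 against P0, 8.77% of all features tested were called higher and 8.25% lower. Of the 20 other collagens, 3 were lower, Col8a1 (log2 difference -1.83, limma adjusted p = 0.00481), Col18a1 (-1.40, adjusted p = 0.0229) and Col20a1 (-1.39, adjusted p = 0.04996), and 17 did not pass. Of the 27 folding genes 4 were higher and 3 lower. Those with the smallest p were Crtap, part of the prolyl 3-hydroxylase complex (-1.22), Fkbp7 (1.65) and Fkbp14 (0.92), with limma adjusted p of 0.00503 to 0.00828. Of the 13 processing genes 2 were higher, the procollagen N-proteinase Adamts14 (2.48) and Tgm2 (1.25). Of the 10 receptors 3 were lower, Ddr2, Ddr1 (-2.21) and Itgb1 (-0.86). Of the 23 TGF-beta genes 2 were higher and 4 lower, with Ski (-1.25) and the co-receptor Tgfbr3 (-1.11) among the lower. Of the 9 proteases Mmp2 was higher (2.81) and 2 were lower, the membrane-bound Mmp14 (-1.34) and the cathepsin Ctsk (-1.81). Dcn was lower (-0.66) and Stab2 higher (4.995). Leaving out single libraries was run for 23 of these calls, up to 3 per list with the smallest p and marker genes included, and not for the rest. Of the 23, 5 held whichever library was left out: Ddr2, Mmp2, Ski, Dpt and Itgax. Each of the other 18 was lost without at least 1 P0 library (highest limma adjusted p = 0.244, for Col20a1).

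**Figure D4:**
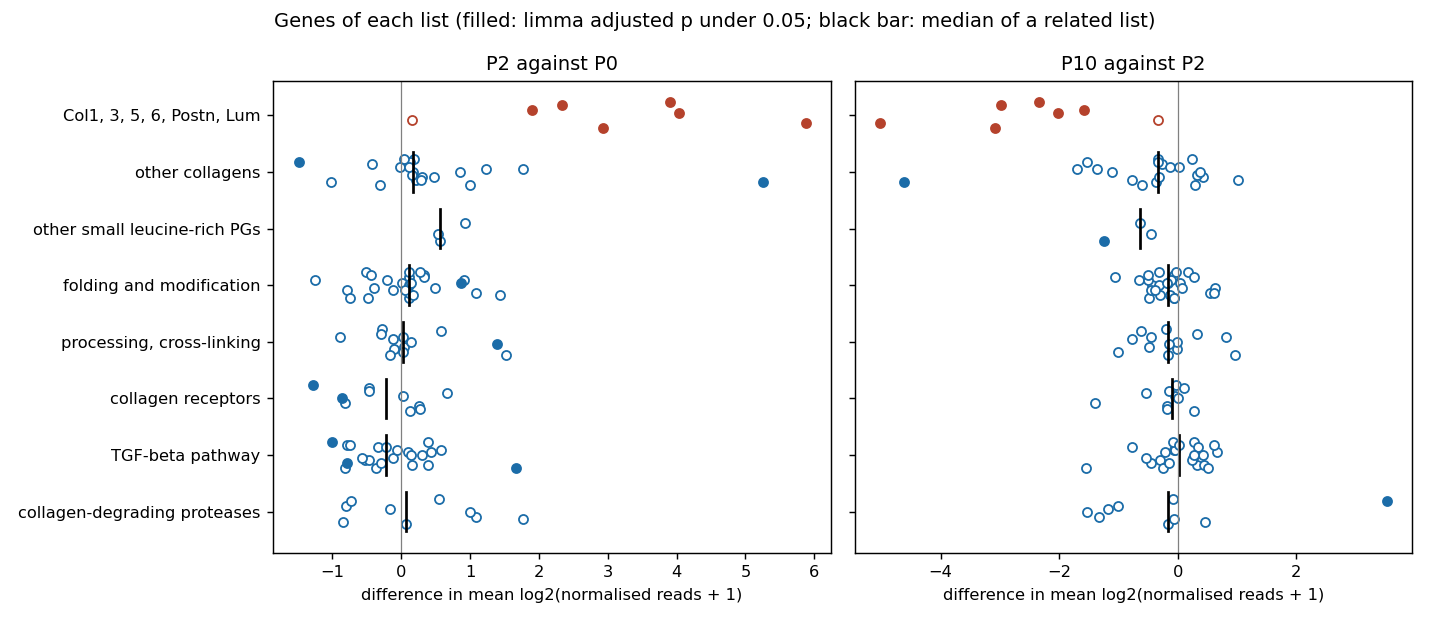
Differences in mean log2(normalised reads + 1) (horizontal axis) at P2 against P0 (left) and P10 against P2 (right) for each tested gene of the lists named on the vertical axis, filled where the limma adjusted p was under 0.05, with black bars at the medians of the related lists and a vertical offset that only separates points. The genes of the top line, which were picked with earlier results known, lie to the right at left and to the left at right, apart from Col5a2, and Col9a3 is the filled point far from the rest among the other collagens.

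Markers of other cell types were measured beside these changes. Of 9 fibroblast and mesenchymal markers tested, 1 rose at P2 and 1 fell, and 3 were higher and 2 lower at P4. The shares of all features tested were 2.08% higher and 2.07% lower at P2, and 3.72% and 5.52% at P4. S100a4, a calcium-binding protein, had 696 and 959 normalised reads in P0, 2042 and 1869 in P2, 3983 and 3662 in P4, 2189 and 984 in P6, and 1195 and 3090 in P10, and was called higher at P4 (log2 difference 2.22, limma adjusted p = 0.0209). The others called at P4 were Dpt (2.94) and Pdgfrb (1.11), higher, and Acta2 (-1.62) and Prrx1 (-2.23), lower. S100a4, Pdgfrb and Acta2 were named after their values were seen, and calls at P4 were not refitted without single libraries for these markers. The riser at P2, dermatopontin (Dpt), a matrix protein that binds decorin, did not turn back: it had 64.5 and 44.6 normalised reads in P0, 361 and 264 in P2, 432 and 403 in P4, 672 and 613 in P6, and 1047 and 901 in P10. It rose by 2.50 at P2 and 4.15 at P10 (limma adjusted p = 0.00105 and 6.71e-05), both calls holding whichever library was left out. Prrx1, a mesenchymal transcription factor, fell by 1.41 at P2 (limma adjusted p = 0.0398, lost when any 1 of the P0, P2 and P4 libraries was left out, highest 0.287). At P10 against P0, Prrx1 (-1.91) and Pdgfra, a growth factor receptor of mesenchymal cells (-1.20), were lower. Of 10 leukocyte markers 9 were matched, with sums of 124.6 to 147 at P0, 177 to 190 at P2, 243 to 265 at P4, 199 to 281 at P6 and 144 to 257 at P10. Of the 6 tested, 1 was called higher than P0 at P2, 2 at P4, 2 at P6 and 1 at P10, and none lower. Of all features tested, 10.5% were called higher and 10.5% lower at P6, and 8.77% and 8.25% at P10. Itgax was called higher at P2 (4.59, limma adjusted p = 0.00181) and at P10 (4.04, adjusted p = 0.00176). It had 0 and 1.44 normalised reads in P0, 37.5 and 35.8 in P2, and 18.6 and 32.8 in P10. Both P0 values lie under the floor of 3 reads, so the size of these differences is uncertain. At P4 and P6 Itgax and Cd68, a lysosomal protein of macrophages, were both called higher. Cd68, named after its values were seen, had 32.2 and 37.4 normalised reads in P0, 40.6 and 45.8 in P2, 82.1 and 97.9 in P4, 93.9 and 111 in P6, and 75.9 and 44.5 in P10 (log2 difference 1.34 at P4, limma adjusted p = 0.0296, and 1.53 at P6, adjusted p = 0.0121). Ptprc lay between 9.58 and 29.2 in all libraries, and Cd14 and Tyrobp had at most 1 read in any library. Adgre1 had 61.8 and 74.7 normalised reads in P0, 49.5 and 43.1 in P4, and 37.6 and 73.0 in P6. In P10 it had 83.5 and 27.3. Fcer1g had 13.1 and 10.1 in P0, 16.8 and 14.0 in P4, and 11.7 and 1.12 in P6. Neither Adgre1 nor Fcer1g was called against P0, and both were named after their values were seen. Of 8 endothelial markers 7 were matched, with sums of 67.9 to 172. The part of other cell types in the rise of the collagen genes was not tested.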

How the data were processed

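RNA-seq of CHO-K1 cells at 5 passages (2 libraries each) was analysed from 1 table. Per the submitters' processing notes, the authors normalised read counts with DESeq; aligner, counter, genome build and annotation were not given in the sources used here. Its values are a signal, deposited as reads divided by a size factor per library: in every column 100% of values were whole multiples, within 0.01 reads, of the smallest value above 0, which gave reads back for depth, edgeR and DESeq2. For P4 replicate 1 that step lies near 1, so an automatic check of units could not separate it from rounding. Gene numbers were matched to symbols through RefSeq's CriGri-PICRH-1.0 table (16386 of 20050). No sequences or gene lengths were used.

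limma 3.58.1 (R 4.3.3) was fitted to log2(value + 1) of the 13521 features averaging at least 10, with a mean per passage, a trended prior and all 10 libraries (5 residual degrees of freedom); tests were two-sided, adjusted by Benjamini-Hochberg at 0.05 within a comparison. The fold change on this scale understates low genes. Intervals of read ratios are exact binomial and cover counting error only. The step was tested on simulated data. Alternatives were edgeR 4.0.16, DESeq2 1.42.0, other pseudocounts (0.5 and 5), filters, scaling, fewer libraries and a replicate block. The genes and lists were chosen with earlier results of these data known. Named were all 10 genes, up to 3 called genes per list and comparison with the smallest p, and the 3 most similar profiles per gene with a mean of at least 50. A result that this rule would name is not reported here. Reads of genes with near-identical copies are uncertain. The numbers of the duplicates were not taken as pairs, and the labels do not say whether libraries of different passages belong together.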

Additional observations from a re-analysis of the deposited data

How the results depend on the processing

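No direction of a called difference turned under any alternative. Of the 56 differences of the 7 genes over 8 comparisons, all 56 kept their side of the threshold under edgeR, under pseudocounts of 0.5 and 5, and after setting library medians equal, which moved a library by up to 0.17 on the log2 scale; so did 48 of the 48 left with a mean of at least 50. Without a filter 3 calls were lost, and under DESeq2 5 differences passed in addition. In the counts below, "genes" means the 7 collagen, periostin and lumican genes. With DESeq2, 1061 features were called at P2 against P0, 10 from P2 to P4 (1 of the genes), 463 from P4 to P6 (3 genes), 67 from P6 to P10 (1 gene) and 836 from P2 to P10. Without the filter, 102 were called from P2 to P10. In fits of only the passages compared, which have fewer residual degrees of freedom, 3940 features were called at P2 (6 genes) and 5677 at P4 against P0 (7 genes), 49 at P10 (0 genes), 569 from P2 to P4 (2 genes), 4 from P4 to P6 and 0 from P2 to P10 (0 genes, adjusted p = 0.211 to 0.540 for the 6 called otherwise).

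With the replicate number as a block, 261 features were called at P2, 767 at P4 and 48 from P2 to P10, and 3 calls of the genes were lost: Col3a1 at P6 against P0 (limma adjusted p = 0.0666), and Col3a1 (0.0878) and Col6a2 (0.0819) from P2 to P10. Deviations of libraries with the same number correlated at -0.670 to 0.225 across passages, so the numbers were not taken as pairs.

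Leaving out 1 library at a time gave 61 to 1578 features at P2 against P0 (4 to 6 genes), 143 to 2783 at P4 (3 to 5), 412 to 5441 at P6 (2 to 4) and 315 to 4738 at P10 (0 to 3). From P2 to P4 it gave 0 to 9 (0 to 1), from P4 to P6 0 to 3676 (0 to 7), from P6 to P10 0 to 2936 (0 to 2) and from P2 to P10 5 to 3500 (1 to 6). Of the 23 calls of the genes, 10 held in all 10 of these fits. Without both P6 replicate 2 and P10 replicate 1, whose passages were then 1 library each and assumed to vary like the rest, the counts were 4616 at P2, 5829 at P4 (7 genes), 6595 at P6, 6256 at P10 (4 genes), 220 from P2 to P4 (1 gene), 3712 from P4 to P6 (6 genes), 3610 from P6 to P10 (4 genes) and 2968 from P2 to P10. The causes of these shifts were not tested. Read depth limits Col1a2, and the P0 and P10 levels of Col1a1 and Lum, which rest on 1 to 11 reads a library.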
